A study of Mus musculus with 4 samples.

Results

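The genes described here mark the cells of blood and lymph vessels: 35 genes, all present among the 55487 gene IDs of the deposited table. They were listed by name, with earlier results of these data known, and fall into 4 roles. There are 23 pan-endothelial genes, 6 genes of the blood-brain barrier, 2 lymphatic genes and 4 pericyte genes. All 35 passed the filter on low counts, with between 53 and 3929 counts per gene and library.

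The libraries are poly(A) RNA from the skull vault of mouse embryos at E14.5 (embryonic day), when bone begins to form there. The tissue of 2 libraries is the frontal bone, and that of the other 2 is the parietal bone together with the interparietal bone (the parietal libraries). Strain, genotype, sex, number of embryos per library and any pooling are not given in the labels, and no treatment is named. Whether the 2 libraries of a group are from different embryos is not stated, and the p-values below therefore reflect library-to-library spread that could be technical alone. Total counts were 29598388 and 35555013 in frontal libraries 1 and 2, against 24069177 and 26645504 in parietal libraries 1 and 2.

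Endothelial cells line every vessel, are joined by VE-cadherin and PECAM-1, and grow in response to VEGF, which binds the receptors that Kdr and Flt1 encode. In the brain, endothelial cells also form a barrier: they seal their junctions, restrict transcytosis and carry nutrients by dedicated transporters, and WNT signals from neural tissue induce these features. Pericytes wrap the capillaries and maintain the barrier. Vessels of bone, dermis and meninges are for the most part not of this barrier type.

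The deposited labels name bone, and the libraries held osteoblast transcripts together with those of other tissues. Among 12 osteoblast markers, Col1a1 averaged 981 ± 19.5 CPM in frontal and 1496 ± 9.02 CPM in parietal libraries (SD, n = 2 each), while Bglap and Dmp1, genes of mature bone cells, were under 1 CPM in every library. CPM are counts at a common library size, in edgeR's unit, after TMM correction (trimmed mean of M-values). Forebrain genes summed to 536 and 553 CPM in the frontal libraries, against 71.3 and 66.0 CPM in the parietal libraries (12 genes). Midbrain and hindbrain genes summed to 49.5 and 64.9 CPM in frontal, against 109 and 124 CPM in parietal libraries (12 genes). Genes of neural cells in general summed to 1137 and 1109 CPM in frontal, against 1059 and 1060 CPM in parietal libraries (10 genes). Meningeal genes summed to 493 and 551 CPM in frontal, against 742 and 753 CPM in parietal libraries (12 genes). Skeletal muscle genes summed to 1691 and 1547 CPM in frontal, against 2129 and 2100 CPM in parietal libraries (12 genes), and red cell genes to 12033 and 10121 CPM in frontal, against 14707 and 14596 CPM in parietal libraries (9 genes). These tissues carry vessels of their own. Their part in the differences below was not tested, and in bulk RNA fewer cells of a type and less RNA per cell cannot be told apart.

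Of the 35 vessel genes, 2 were higher in frontal libraries, 4 were lower and 29 were not called, by edgeR's quasi-likelihood test with an adjusted p under 0.05. That is 17.1% called, where 12.7% of all 20947 genes tested were called, 6.25% higher and 6.44% lower. Among the 12659 tested genes in the members' range of mean CPM, 16.3% were called, near the share of the members, and 8.54% were lower. The 2 higher genes, Mfsd2a and Slco1c1, encode transporters of the brain barrier. The 4 lower genes were the forkhead factors Foxq1 and Foxf2, the VE-cadherin gene Cdh5 and the pericyte gene Rgs5. Scaled by the total count alone, 0 members were higher and 6 lower, and over all genes the split moved to 984 higher and 1606 lower, against 1309 and 1348 with TMM scaling. Without a parietal library, 0 members were called higher and 2 lower, which were Cdh5 and Foxq1. Without frontal library 1, 3 were higher and 15 lower: Emcn was added to the higher genes, and Aplnr, Cd34, Cspg4, Egfl7, Erg, Flt4, Kdr, Plvap, Ramp2, Rasip1 and Vwf to the lower ones. Without frontal library 2, 3 were higher and 10 lower, with Egfl7 added to the higher genes and Abcb1a, Flt1, Flt4, Kdr, Pecam1 and Sox18 to the lower ones. The share of all genes called moved with these counts: it stood at 24.2% when frontal library 1 was left out and at 32.6% when frontal library 2 was, and at 3.89% and 3.84% when parietal libraries 1 and 2 were left out in turn.

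**Figure D1:**
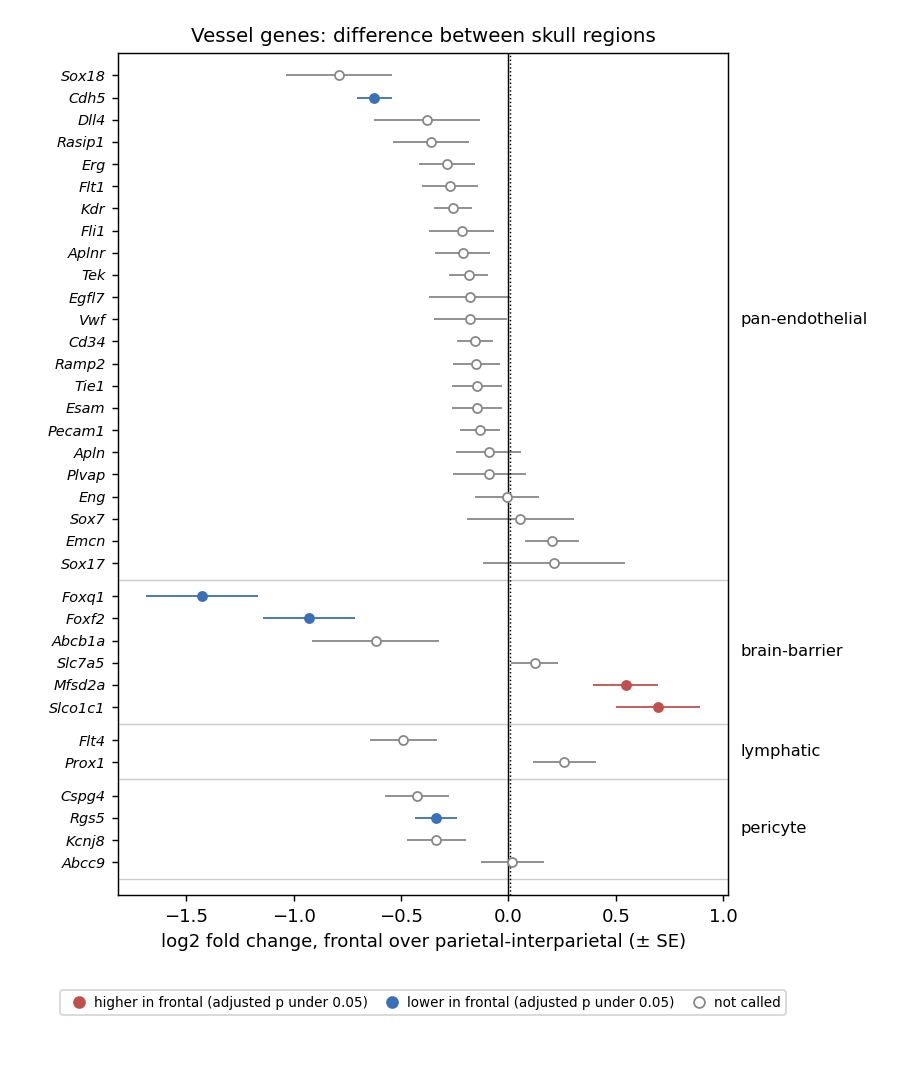
The log2 fold change of each of the 35 genes, frontal over parietal, with its standard error, grouped by role. Filled points passed the test, and the dotted line is the median of all genes tested. The barrier genes spread from −1.43 (Foxq1) to 0.70 (Slco1c1), while 20 of the 23 pan-endothelial genes lie below 0.

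Foxq1, Foxf2, Mfsd2a and Slco1c1 are the barrier genes whose calls the comparison turns on, and Rgs5 is the called pericyte gene. The 250 bases before the transcription start are shown for those of the called genes with an entry in the promoter table, which are Mfsd2a, Slco1c1, Foxf2 and Rgs5. The sequences are from RefSeq, build GRCm38.p6. Capitals mark the core of the LEF/TCF motif, CTTTG, on either strand (CAAAG on the other). LEF/TCF factors are the nuclear end of canonical WNT signalling.
Mfsd2a, chr4:122961189-122961438, minus strand: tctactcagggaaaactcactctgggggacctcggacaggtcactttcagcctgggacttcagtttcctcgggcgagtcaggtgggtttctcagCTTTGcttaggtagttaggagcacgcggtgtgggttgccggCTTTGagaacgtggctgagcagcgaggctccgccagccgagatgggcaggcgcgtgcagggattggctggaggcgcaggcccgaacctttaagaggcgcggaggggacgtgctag
Slco1c1, chr6:141524104-141524353, plus strand: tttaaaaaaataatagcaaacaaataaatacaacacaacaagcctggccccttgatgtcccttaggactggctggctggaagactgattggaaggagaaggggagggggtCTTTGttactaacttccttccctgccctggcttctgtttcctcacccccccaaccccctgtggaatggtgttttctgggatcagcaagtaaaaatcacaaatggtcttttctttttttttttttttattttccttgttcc
Foxf2, chr13:31625566-31625815, plus strand: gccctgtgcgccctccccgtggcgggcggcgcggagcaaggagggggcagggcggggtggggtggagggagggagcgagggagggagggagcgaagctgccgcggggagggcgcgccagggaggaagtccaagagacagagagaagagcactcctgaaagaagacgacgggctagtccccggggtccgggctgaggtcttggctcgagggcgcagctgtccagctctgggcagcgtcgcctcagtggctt
Rgs5, chr1:169655251-169655500, plus strand: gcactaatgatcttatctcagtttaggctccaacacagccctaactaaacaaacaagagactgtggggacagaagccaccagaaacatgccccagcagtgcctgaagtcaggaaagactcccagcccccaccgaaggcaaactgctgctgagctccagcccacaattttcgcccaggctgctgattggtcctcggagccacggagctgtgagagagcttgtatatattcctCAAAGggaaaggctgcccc
The Mfsd2a window holds 2 such cores, those of Slco1c1 and Rgs5 hold 1 each, and that of Foxf2 holds 0. Of the 22 members with an entry in the table, 12 had at least 1 core (54.5%), against 48.7% of 32536 distinct windows of the same length. The core of the ETS motif, GGAA on either strand, which factors such as those encoded by Erg and Fli1 bind, was in 20 of the 22 windows (90.9%), against 93.4% of all windows. Both shares are near those of all promoters. A match is a description of letters, not of a bound site.

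Transporters of the barrier were the members that rose in the frontal libraries. Mfsd2a encodes a carrier of lysophosphatidylcholine with docosahexaenoic acid that also holds down transcytosis in brain endothelium (ENSMUSG00000028655, GRCm38 chromosome 4, 122946850 to 122961188). It was at 13.8 and 13.1 CPM in frontal libraries 1 and 2, against 9.41 and 9.03 CPM in parietal libraries 1 and 2. Both frontal libraries lay above both others, and the gene was 1.46-fold higher (log2 fold change 0.55 ± 0.15 SE, edgeR adjusted p = 0.0386). Slco1c1 encodes a transporter of thyroxine at the barrier and in the choroid plexus (ENSMUSG00000030235, chromosome 6, 141524368 to 141570177). Its values were 8.34 and 7.98 CPM in frontal and 5.24 and 4.83 CPM in parietal libraries, again with no overlap. It was 1.62-fold higher (0.70 ± 0.20, edgeR adjusted p = 0.0434). Both calls were lost with no scaling beyond the total count, where the edgeR adjusted p-values were 0.0572 for Mfsd2a and 0.0589 for Slco1c1, in DESeq2 (adjusted p = 0.0664 and 0.0651), without either parietal library and after the parietal pair was summed into 1 sample. The log2 fold changes stayed between 0.49 and 0.58 for Mfsd2a and between 0.64 and 0.76 for Slco1c1 over the 11 alternatives. The 12 forebrain genes, summed above, were also higher in both frontal libraries, while 3 of the 6 barrier members had log2 fold changes below 0. Any link was not tested.

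The other 2 transporters of the barrier group were not called. Slc7a5 encodes the transporting subunit of the carrier that takes up large neutral amino acids, and many growing cells also express it. It was at 34.7 and 33.7 CPM in frontal and 33.3 and 29.4 CPM in parietal libraries (log2 fold change 0.12 ± 0.11, edgeR adjusted p = 0.516). Abcb1a, which encodes the efflux pump P-glycoprotein, was at 2.50 and 3.41 CPM in frontal and 5.32 and 3.79 CPM in parietal libraries (−0.62 ± 0.30, edgeR adjusted p = 0.214). The groups of Abcb1a did not overlap, but they lay within a spread that the test did not exceed. Abcb1a has a near copy, Abcb1b, and reads shared between them make its level uncertain. Without frontal library 2 it was called lower.

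**Figure D2:**
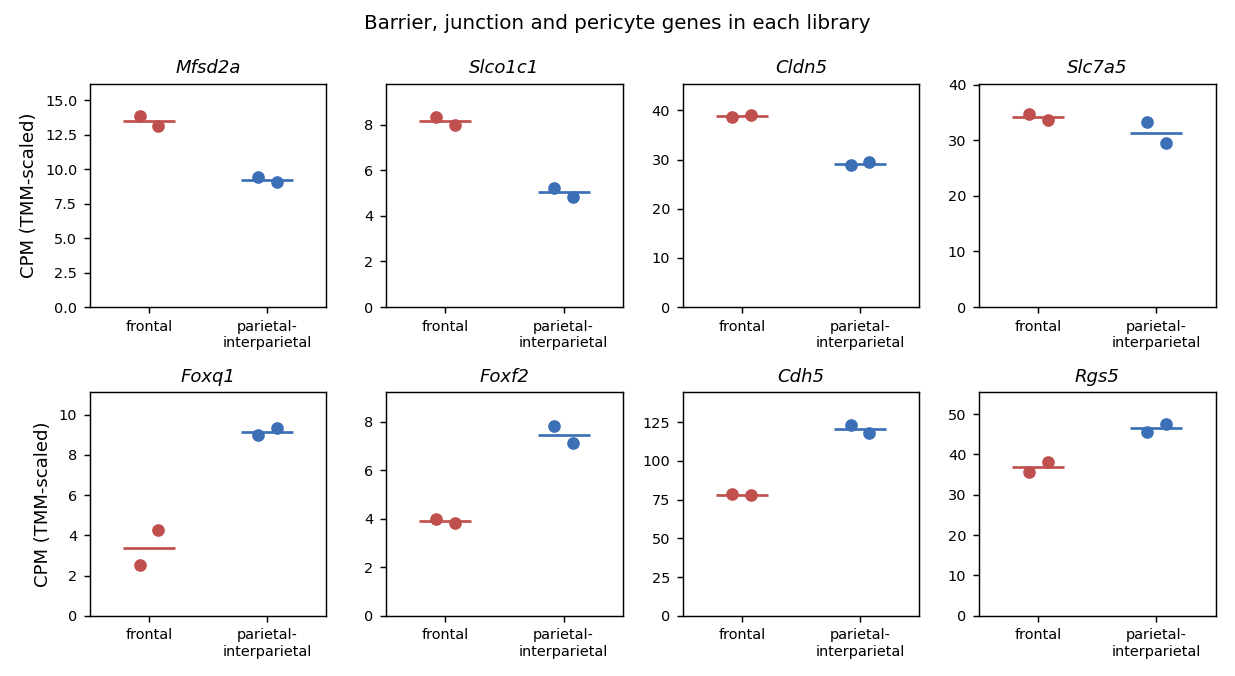
CPM in each library (points) with the mean of each group (lines) for 8 genes, frontal left and parietal right, each axis starting at 0. Mfsd2a, Slco1c1 and Cldn5 are higher in both frontal libraries, Foxq1, Foxf2, Cdh5 and Rgs5 are lower in both, and Slc7a5 was not called.

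Both forkhead factors of the barrier group fell in the frontal libraries. Foxq1 is a factor enriched in brain endothelium (ENSMUSG00000038415, GRCm38 chromosome 13, 31556134 to 31560976). It was at 2.50 and 4.26 CPM in frontal libraries 1 and 2, against 9.002 and 9.32 CPM in parietal libraries. The frontal values differed 1.70-fold from each other, yet both lay well under the other pair. The gene was 2.69-fold lower (log2 fold change −1.43 ± 0.26, edgeR adjusted p = 0.00636), the largest fold among the 35 members, and it kept its call in all 11 alternatives, with an adjusted p of at most 0.0134. The annotation places another gene, A530084C06Rik, on the opposite strand over 66.1% of the Foxq1 exons. That gene was at 0 counts in all 4 libraries, and whether reads of the shared stretch were counted depends on a strand setting that is not given.

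Foxf2, which brain pericytes need for barrier formation and which neural crest mesenchyme of the face also expresses (ENSMUSG00000038402, chromosome 13, 31625816 to 31631403), was at 3.999 and 3.83 CPM in frontal and 7.82 and 7.11 CPM in parietal libraries. It was 1.91-fold lower with no overlap between groups (−0.93 ± 0.21, edgeR adjusted p = 0.0188). Without parietal library 1 its adjusted p was 0.167, without library 2 it was 0.0805, and with the pair summed 0.123, while the log2 fold change ranged from −1.001 to −0.862 over the 11 alternatives. Foxq1 and Foxf2 are neighbours on the plus strand of chromosome 13, with 64840 bases between them, and Foxc1 follows 175230 bases further on. Foxc1, a forkhead factor of pericytes, meninges and skull mesenchyme, was 1.44-fold lower (28.9 ± 3.10 CPM in frontal against 41.5 ± 2.28 CPM in parietal libraries, n = 2 each; −0.53 ± 0.11, edgeR adjusted p = 0.0136). Foxc1 lost its call without either parietal library and with the pair summed. In the same libraries 6 of 12 meningeal genes were lower and 0 higher, a share of 50% where 12.7% of all genes tested were called. Fewer were lower without either parietal library and with the pair summed, and more without either frontal library. A higher call also appeared without frontal library 1.

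Relative to the other endothelial genes of the same library, a measure in which library scaling cancels, Mfsd2a had 15.2 and 16.4 counts per 1000 summed counts of the 23 pan-endothelial genes in frontal libraries, against 9.44 and 9.15 in parietal libraries. For Slco1c1 the ratio was 9.18 and 9.98 in frontal, against 5.25 and 4.89 in parietal libraries. Both ratios were thus higher in both frontal libraries. Per 1000 such counts, Foxq1 stood at 2.75 and 5.33 in the frontal pair, against 9.03 and 9.45 in the parietal pair. Foxf2 had 4.40 and 4.79 per 1000 in the frontal pair, against 7.84 and 7.21 in the parietal pair. Abcb1a had 2.75 and 4.26 per 1000 in the frontal pair, against 5.33 and 3.85 in the parietal pair, so its groups overlapped on this measure. These ratios were not tested, nor were differences between the genes.

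In a wider list of 20 other barrier genes 1 was higher, 4 were lower and 15 were not called, with a median log2 fold change of −0.07, against 0.01 over all genes tested. A share of 25% was thus called, against 12.7% of all genes. Without either parietal library and with the pair summed, 0 were higher and 4 lower, and without frontal library 2, 2 were higher and 9 lower. Its higher gene was Cldn5, which encodes the claudin that seals endothelial tight junctions. Cldn5 was at 38.7 and 39.0 CPM in frontal and 28.8 and 29.4 CPM in parietal libraries, 1.33-fold higher (0.42 ± 0.10, edgeR adjusted p = 0.0232). That call was lost without either parietal library and with the pair summed. Lower genes included Slc22a8, an organic anion transporter that meninges and choroid plexus also express (2.89-fold, adjusted p = 0.00298), Stra6, a receptor for retinol binding protein (1.62-fold), and the proteoglycan gene Spock2 (1.61-fold). These 3 kept their calls in all 11 alternatives. Slc2a1, which encodes the glucose transporter GLUT1, averaged 74.8 ± 0.557 CPM in frontal and 79.4 ± 3.45 CPM in parietal libraries (edgeR adjusted p = 0.581).

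Of 12 genes of the WNT signal that induces the barrier, 1 was higher, 2 lower and 9 not called, 25% called against 12.7% of all genes tested. Wnt7b, a ligand made by neural cells, averaged 36.5 ± 2.46 CPM in frontal and 24.1 ± 0.360 CPM in parietal libraries (SD, n = 2 each), a 1.51-fold higher level (edgeR adjusted p = 0.00654). Fzd4, a receptor that endothelial cells use, was 1.40-fold lower (39.8 ± 2.13 CPM in frontal against 55.8 ± 0.540 CPM in parietal libraries, adjusted p = 0.00869), and Nkd1, a feedback target of the pathway, 1.37-fold lower (adjusted p = 0.0137). Wnt7a, a ligand like Wnt7b, was at 6.71 and 7.58 CPM in frontal and 7.57 and 5.49 CPM in parietal libraries (adjusted p = 0.751). All 3 calls were lost without either parietal library and with the pair summed.

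Among the 23 pan-endothelial genes 1 was lower, 0 were higher and 22 were not called. The called share was thus 4.35%, against 12.7% of all genes tested. At an unadjusted p under 0.05 there were 3, Cdh5, Sox18 and Kdr, all with negative log2 fold changes, where 27.1% of all genes tested had such a p. Log2 fold changes were small and mostly below 0, in 20 of 23 genes, with a median of −0.18. Both frontal libraries lay below both parietal libraries in 12 of the 23 and above them in 1, while 10 overlapped. Over all 35 members these counts were 19 below (54.3%) and 5 above (14.3%), so 24 of 35 did not overlap, where 28.4% of all genes tested lay below, 28.9% above and 57.3% in either order. The members share cells and libraries, so their common direction is not a count of independent observations. Summed over the 23 genes, the level was 909 and 800 CPM in frontal libraries, against 997 and 987 CPM in parietal libraries.

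The lower gene was Cdh5, which encodes VE-cadherin, the adhesion molecule of endothelial adherens junctions (ENSMUSG00000031871, GRCm38 chromosome 8, 104101625 to 104144511). It was at 78.8 and 77.7 CPM in frontal libraries, against 123 and 118 CPM in parietal libraries. The spread within each pair was small beside the gap, and the gene was 1.54-fold lower (log2 fold change −0.62 ± 0.08, edgeR adjusted p = 0.00107). It kept its call in all 11 alternatives, with log2 fold changes from −0.68 to −0.60 and adjusted p-values of at most 0.0332. Per 1000 counts of the other 22 pan-endothelial genes, Cdh5 had 94.8 and 108 in frontal and 141 and 136 in parietal libraries.

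Pecam1, an adhesion molecule of the same cells, was at 70.0 and 78.2 CPM in frontal and 83.2 and 79.2 CPM in parietal libraries (−0.13 ± 0.09, edgeR adjusted p = 0.406). Esam, another junction molecule, was at 20.9 and 23.2 CPM in frontal and 24.02 and 24.8 CPM in parietal libraries (adjusted p = 0.479). Emcn, which encodes the sialomucin endomucin of veins and capillaries, was at 26.4 and 30.4 CPM in frontal and 26.2 and 23.2 CPM in parietal libraries (0.20 ± 0.12, adjusted p = 0.331), the sole pan-endothelial gene with both frontal libraries above the others. Cd34, a sialomucin that mesenchymal and blood progenitors also carry, was at 119 and 112 CPM in frontal and 132 and 125 CPM in parietal libraries (−0.16 ± 0.08, adjusted p = 0.263). The difference of none of these passed the test with 4 libraries. Plvap, which encodes the diaphragm protein of fenestrated and immature vessels and is lost from mature barrier endothelium, was at 47.6 and 30.6 CPM in frontal and 40.8 and 42.2 CPM in parietal libraries (−0.09 ± 0.17, adjusted p = 0.795). Its 2 frontal values enclosed both parietal values.

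The receptors for vascular growth factors all had log2 fold changes of small size. Kdr, the main signalling receptor for VEGF-A, was at 109 and 95.9 CPM in frontal and 121 and 124 CPM in parietal libraries (−0.26 ± 0.09, edgeR adjusted p = 0.0929). It was called lower without either frontal library and with no scaling beyond the total count. Flt1, a VEGF receptor that acts largely as a decoy, was at 20.03 and 24.1 CPM in frontal and 28.0 and 25.4 CPM in parietal libraries (−0.27 ± 0.13, adjusted p = 0.215). Tek, the angiopoietin receptor TIE2, was at 46.9 and 47.2 CPM in frontal and 52.8 and 54.1 CPM in parietal libraries (−0.18 ± 0.09, adjusted p = 0.231). Each of these 3 had both frontal libraries below both others. The related receptor gene Tie1 was at 26.0 and 28.1 CPM in frontal and 31.8 and 28.2 CPM in parietal libraries (adjusted p = 0.462). Eng, which encodes the TGF-beta co-receptor endoglin, was at 35.4 and 25.8 CPM in frontal and 29.1 and 32.2 CPM in parietal libraries, and its log2 fold change of −0.01 ± 0.15 was the closest to 0 of all members.

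The apelin receptor gene Aplnr, of veins and sprouting vessels, was at 45.1 and 34.8 CPM in frontal and 47.4 and 45.1 CPM in parietal libraries (−0.21 ± 0.13, edgeR adjusted p = 0.315). Its ligand gene Apln, of tip cells, was at 11.8 and 11.6 CPM in frontal and 11.5 and 13.4 CPM in parietal libraries (adjusted p = 0.755). The Notch ligand gene Dll4, of arteries and tip cells, was at 5.39 and 4.35 CPM in frontal and 7.36 and 5.27 CPM in parietal libraries (adjusted p = 0.368). Groups overlapped in all 3. Ramp2, a partner of the adrenomedullin receptor, was at 47.4 and 40.7 CPM in frontal and 46.7 and 50.9 CPM in parietal libraries, but 33.4% of its exons overlap those of Vps25 on the same strand, so its level is uncertain.

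Among the transcription factors, Sox18, a SOX-F factor of vessels and lymphatic precursors, had the lowest log2 fold change of the pan-endothelial genes. It was at 3.44 and 4.83 CPM in frontal and 8.02 and 6.34 CPM in parietal libraries (−0.79 ± 0.25, edgeR adjusted p = 0.0651). It was called lower with no filter, with the replicate number as a block and without frontal library 2. The other SOX-F genes, Sox7 and Sox17, were at 5.98 and 4.52 and at 2.75 and 2.73 CPM in the frontal libraries, against 4.42 and 5.64 and 2.78 and 1.95 CPM in the parietal libraries. Both overlapped between groups, with adjusted p-values of 0.917 for Sox7 and 0.741 for Sox17. Whether Sox18 differed from its relatives was not tested. The ETS factor gene Erg was at 17.1 and 15.4 CPM in frontal and 19.2 and 20.4 CPM in parietal libraries (−0.29 ± 0.13, adjusted p = 0.187). Fli1, of the same family, was at 10.4 and 10.9 CPM in frontal and 11.7 and 13.2 CPM in parietal libraries (−0.22 ± 0.15, adjusted p = 0.405).

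The remaining pan-endothelial genes were marked by the spread within the frontal pair. Egfl7, a secreted factor of endothelium, was at 113 and 66.1 CPM in frontal libraries 1 and 2, against 102 and 101 CPM in parietal libraries 1 and 2. Vwf, which encodes von Willebrand factor of endothelium and platelets, was at 28.6 and 19.7 CPM in frontal and 25.3 and 29.1 CPM in parietal libraries. Rasip1, a RAS-interacting protein needed for vessel lumens, was at 16.9 and 11.4 CPM in frontal and 18.2 and 18.02 CPM in parietal libraries. In all 3 the frontal library 1 value was at least 1.45 times that of frontal library 2, and none was called (adjusted p = 0.598, 0.555 and 0.228 in edgeR). Without frontal library 1 all 3 were called lower, and without frontal library 2 Egfl7 was called higher. The median absolute log2 difference between the 2 frontal libraries was 0.17 over the 35 members and 0.18 over the 12659 tested genes in the same range of mean CPM, against 0.12 and 0.10 between the parietal libraries. For Rasip1, 20.4% of exon bases are shared with Izumo1 on the same strand. Of 7 tested platelet genes 1 was lower and 6 were not called, a share of 14.3% near the 12.7% of all genes, with a median log2 fold change of −0.22. The lower gene, Pf4, was at 51.1 and 70.6 CPM in frontal and 86.5 and 86.8 CPM in parietal libraries, and lost its call without either parietal library and with the pair summed.

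**Figure D3:**
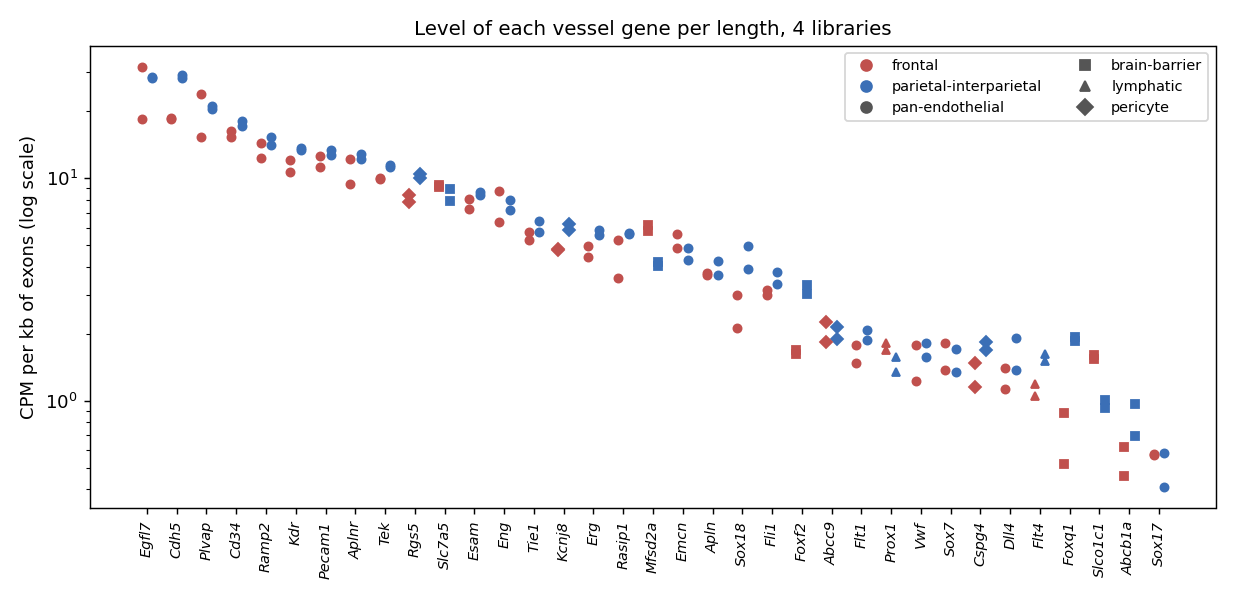
CPM per kilobase of annotated exons (log scale) of each gene in the 4 libraries, ordered by mean level, frontal left of parietal. Levels run from Egfl7 at the top to Sox17 at the bottom, and the groups lie close for most genes.

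Per kilobase of exon, the members spanned a wide range of levels. Egfl7 was the highest at 25.1 ± 9.34 CPM per kilobase in frontal and 28.3 ± 0.122 in parietal libraries (SD, n = 2 each). Cdh5 came next at 18.6 ± 0.178 in frontal and 28.7 ± 0.825 in parietal libraries, followed by Plvap at 19.7 ± 6.03 in frontal and 20.9 ± 0.498 in parietal libraries. In the frontal libraries the order of these 3 lies within the spread of Egfl7 and Plvap, and in the parietal libraries Cdh5 and Egfl7 differ by less than the SD of Cdh5. Sox17 was the lowest, at 0.573 ± 0.00307 CPM per kilobase in frontal and 0.496 ± 0.123 in parietal libraries. Among barrier genes Slc7a5 was the highest per kilobase, at 9.22 ± 0.189 in frontal and 8.47 ± 0.745 in parietal libraries. Mfsd2a followed at 5.98 ± 0.235 in frontal and 4.10 ± 0.120 in parietal libraries. Abcb1a was at 0.539 ± 0.117 CPM per kilobase in frontal and 0.832 ± 0.197 in parietal libraries. Plvap per kilobase was thus above every barrier gene in both groups.

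A list of 27 other endothelial genes gave 1 higher, 6 lower and 19 not called, with 1 gene, Etv2, not tested and a median log2 fold change of −0.30. The called share was 26.9%, against 12.7% of all genes tested. The higher gene is not named here, nor are all of the lower ones. Mcam, an adhesion molecule of endothelium and pericytes, averaged 50.04 ± 0.0436 CPM in frontal and 82.4 ± 0.565 CPM in parietal libraries (SD, n = 2 each), a 1.65-fold lower level (−0.72 ± 0.09, edgeR adjusted p = 0.000694) and kept its call in all 11 alternatives. Elk3, an ETS factor, was 1.38-fold lower (adjusted p = 0.00754) and Stab1, a scavenger receptor of sinusoids and macrophages, 1.39-fold lower (adjusted p = 0.00879). Both lost their calls without either parietal library and with the pair summed. In each of those 3 settings at most 2 genes of the list were called lower. Of 12 macrophage genes 2 were lower and 10 were not called, a share of 16.7% near that of all genes, and 0 were called without either parietal library or with the pair summed.

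Ligands and co-receptors of the VEGF, angiopoietin and apelin systems were not called in any of 12 tested genes in the main edgeR fit. Of these, 4 had an unadjusted p under 0.05, a count near the 27.1% of all genes tested. DESeq2 called 1 lower, as did edgeR with no scaling beyond the total count, with no filter and with the replicate block. Further calls appeared without either frontal library. Vegfa was at 54.6 and 49.0 CPM in frontal and 59.2 and 50.6 CPM in parietal libraries (edgeR adjusted p = 0.677). The smallest adjusted p-values were those of Vegfb and Vegfd, 0.0691 and 0.0756, with log2 fold changes of −0.43 and −0.49. Of 10 arterial genes, 1 was higher and 1 lower, 20% called against 12.7% of all genes tested. Hey1, a Notch target found in neural progenitors too, was higher by 2.15-fold (18.9 ± 1.84 CPM in frontal against 8.80 ± 1.57 CPM in parietal libraries, edgeR adjusted p = 0.0022). The Notch ligand gene Jag1 was 1.55-fold lower (40.2 ± 1.03 CPM in frontal against 62.4 ± 3.88 CPM in parietal libraries, edgeR adjusted p = 0.00229). Jag1 lost its call without parietal library 2. None of 5 tested venous genes was called in the main edgeR fit or in DESeq2, and 0 had an unadjusted p under 0.05. Lower calls appeared without either frontal library.

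Genes of a tip cell list that includes vascular matrix were lower in 5 of 11 and higher in 0, with a median log2 fold change of −0.44. This 45.5% stands beside 12.7% of all genes tested that were called. The lower genes were Mcam, Igfbp3, a binding protein of insulin-like growth factors (1.51-fold, edgeR adjusted p = 0.00217), the type IV collagen genes Col4a1 (279 ± 26.0 CPM in frontal against 378 ± 6.16 CPM in parietal libraries, 1.35-fold) and Col4a2 (1.40-fold), and the nidogen gene Nid2 (1.35-fold). Mesenchyme and muscle also make these matrix proteins, and muscle genes were lower in 9 of 12 (75%). Any link between the 2 lists was not tested. Without either parietal library 2 of the 5 kept a call and 3 of 12 muscle genes were lower, while without frontal library 1 all 12 muscle genes were.

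The log2 fold changes of the 2 lymphatic members had opposite signs, and neither gene was called. Flt4 encodes VEGFR-3, the receptor for VEGF-C on lymphatic and early blood endothelium (ENSMUSG00000020357, chromosome 11, 49609263 to 49652739). It was at 9.77 and 8.66 CPM in frontal and 12.4 and 13.4 CPM in parietal libraries (−0.49 ± 0.16, edgeR adjusted p = 0.0677), with no overlap, and was called lower without either frontal library and with no scaling beyond the total count. Prox1, the master factor of lymphatic identity, which neural progenitors, lens and muscle also express, was at 14.2 and 15.2 CPM in frontal and 11.3 and 13.2 CPM in parietal libraries (0.26 ± 0.15, adjusted p = 0.291). Lyve1, a hyaluronan receptor of lymphatics and macrophages, was at 13.3 and 11.5 CPM in frontal and 14.2 and 15.96 CPM in parietal libraries (adjusted p = 0.254). Of 7 other lymphatic genes tested, Reln was higher by 2.51-fold (edgeR adjusted p = 3.04e-05) and Pdpn and Piezo1 were lower, by 1.45-fold and 1.35-fold. That is 42.9% called, against 12.7% of all genes tested. Reln is also made by the earliest cortical neurons, and Pdpn by bone cells and choroid plexus. Without parietal library 2 both lower calls were lost, and without library 1 that of Piezo1.

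Of the 4 pericyte members, 1 was lower in the frontal libraries and 3 were not called, with a median log2 fold change of −0.34. This is a share of 25%, where 12.7% of all genes tested were called. Rgs5 encodes a regulator of G protein signalling that marks pericytes (ENSMUSG00000026678, GRCm38 chromosome 1, 169655501 to 169695813). It was at 35.6 and 38.1 CPM in frontal and 45.5 and 47.6 CPM in parietal libraries, without overlap. The fall was 1.26-fold (−0.34 ± 0.10) and its edgeR adjusted p = 0.0493 lay just under the threshold. The call was lost in DESeq2 (adjusted p = 0.0661), without either parietal library (adjusted p = 0.328 and 0.481) and with the pair summed (0.417). Per 1000 pan-endothelial counts, Rgs5 was at 39.1 and 47.7 in frontal and 45.6 and 48.2 in parietal libraries, and the groups overlapped.

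Cspg4 encodes the proteoglycan NG2 of pericytes, and cartilage, muscle and glial precursors also express it. It was at 17.7 and 13.8 CPM in frontal and 20.2 and 21.9 CPM in parietal libraries (−0.42 ± 0.15, edgeR adjusted p = 0.0928). Kcnj8 and Abcc9 encode the pore and the sulfonylurea receptor of the potassium channel that pericytes carry, and lie next to each other on chromosome 6. Kcnj8 was at 12.1 and 12.3 CPM in frontal and 15.9 and 14.96 CPM in parietal libraries (−0.34 ± 0.14, adjusted p = 0.146). Abcc9 was at 19.0 and 15.4 CPM in frontal and 15.9 and 17.9 CPM in parietal libraries (0.02 ± 0.15, adjusted p = 0.956). Scaled by the total count alone, its log2 fold change was −0.03. Thus both frontal values of Kcnj8 lay below the others while those of Abcc9 overlapped, and whether the subunits differed from each other was not tested.

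Among 16 other pericyte and mural genes 6 were lower, 0 higher and 9 not called, with 1 not tested. Of those tested 40% were called, against 12.7% of all genes. Beside Mcam and Foxc1 the lower genes were Des, which encodes desmin of pericytes and muscle (1.42-fold, edgeR adjusted p = 0.00657), Vtn, which encodes vitronectin (59.5 ± 12.2 CPM in frontal against 95.3 ± 2.30 CPM in parietal libraries, n = 2 each, 1.60-fold, adjusted p = 0.00666), Notch3, the Notch receptor of mural cells (1.38-fold), and its target Heyl (1.43-fold). Mcam and Vtn kept their calls in all 11 alternatives, and the other 4 lost theirs without either parietal library and with the pair summed. Pdgfrb, the receptor by which endothelium recruits pericytes, was at 63.2 and 58.6 CPM in frontal and 68.8 and 66.1 CPM in parietal libraries (−0.15 ± 0.09, adjusted p = 0.337). None of 7 smooth muscle genes was called in the main edgeR fit or in DESeq2, and 2 had an unadjusted p under 0.05, again near the 27.1% of all genes tested. Here too lower calls appeared without either frontal library.

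**Figure D4:**
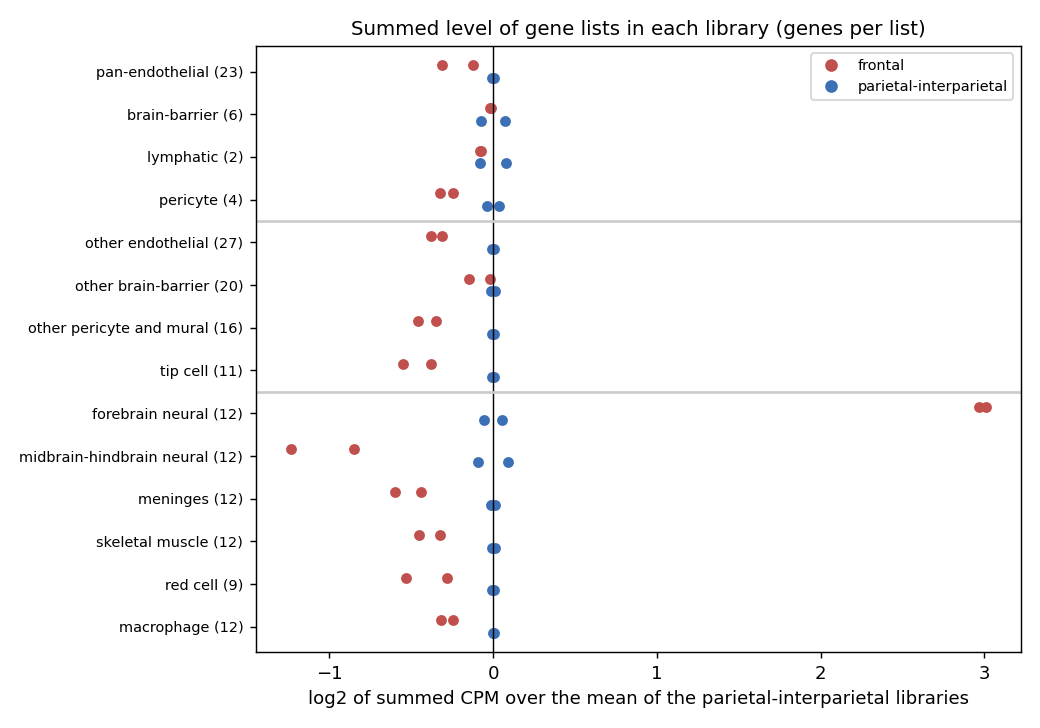
Summed CPM of each gene list in each library, as log2 over the mean of the parietal libraries, with the number of genes in brackets. The pan-endothelial and pericyte sums lie below 0 in both frontal libraries, the sum of the 6 barrier genes lies between the parietal values, and forebrain genes stand apart at about 3.

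Over the 127 distinct vessel genes of these lists that are not among the 35, 123 were tested, 5 were higher and 24 lower (median log2 fold change −0.22). That is 23.6% called, against 12.7% of all genes tested, a share that moved when a library was left out, as given above. Among tested genes in the range of mean CPM of the 35 members, 16.3% were called. No such range was matched to the other lists. Without parietal library 1, 2 were higher and 9 lower, without library 2, 2 and 8, and with the pair summed as 1 sample, 2 and 8. Without frontal library 1 the counts were 10 and 41, and without frontal library 2, 10 and 54. As sums, the 6 barrier members stood at 65.9 and 66.3 CPM in frontal and 70.1 and 63.5 CPM in parietal libraries, and the 4 pericyte members at 84.3 and 79.6 CPM in frontal and 97.4 and 102 CPM in parietal libraries.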

How the data were processed

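The authors deposited raw counts, with 1 value for each gene in each library. The tools named in the submitters' processing notes are featureCounts 2.0.1, HISAT2 2.1.0 and Trim Galore 0.6.7, and the build is GRCm38. Strand setting, annotation release and handling of multiply matching reads were not given in the sources used, so counts of overlapping genes or near copies are uncertain. Even counts made up 68.3% to 74.4% of counts from 1 to 20, which counting both mates of a pair would give, so counts were also analysed halved.

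Symbols and positions came from GENCODE M21 (GRCm38), which matched 55227 IDs and left 260 unmatched. Genes were filtered with filterByExpr (minimum count 10), TMM-scaled and compared by the two-sided quasi-likelihood test of edgeR 4.0.16 (R 4.3.3), whose sole term was group, with 2 residual degrees of freedom. Benjamini-Hochberg adjustment covered all 20947 tested genes, and adjusted p-values are from edgeR unless DESeq2 (1.42.0) is named. A standard error is the size of the log2 fold change over the square root of F. A count of 3 equals 0.104, 0.0852, 0.123 and 0.111 CPM in frontal libraries 1 and 2 and parietal libraries 1 and 2. This floor covers counting error only. Levels per kilobase use the union of annotated exons. The procedure was tested on simulated data. All columns of samples were mapped.

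The members, the 21 other gene lists and the alternatives were chosen with earlier results of these data known. All 35 members were accounted for. From other lists, mainly up to 3 genes with the smallest p were named, and beyond these other called genes of short lists, Wnt7a, Slc2a1, Vegfa, Lyve1, Pdgfrb, Col1a1, Bglap and Dmp1, chosen after their values were seen. Ccl21a, whose symbol matched several IDs, was left out, and 1 called gene is not reported here. Figures were drawn with matplotlib 3.10.9.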

Additional observations from a re-analysis of the deposited data

How the results depend on the processing

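Over 11 alternatives and 35 genes, 332 of 385 values kept their direction and side of the threshold, 17 lost the call, 24 gained one and 12 changed sign. Cdh5 and Foxq1 were the called members that kept their call in every alternative. The number of members called higher, 2, was 0 when scaled by the total count alone, 0 in DESeq2 and 0 with the parietal pair summed, and lay between 0 and 3 with 1 library left out. The number called lower, 4, was 2 with the pair summed and lay between 2 and 15 with 1 library left out. With 1 library left out, the group left with 1 library was assumed to vary like the other, and the frontal pair varied more. The median log2 fold change of the pericyte members was −0.39 when scaled by the total count alone.

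With 1 library left out, the log2 fold changes that changed sign ranged from −0.14 to 0.15 for Abcc9 (−0.034 when scaled by the total count alone), from −0.20 to 0.018 for Apln, from −0.62 to 0.15 for Egfl7, from −0.25 to 0.20 for Eng, from −0.44 to 0.19 for Plvap, from −0.16 to 0.24 for Sox7, from −0.028 to 0.48 for Sox17 and from −0.47 to 0.062 for Vwf. The cause was not tested.

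Samples with the same replicate number did not deviate together (correlation 0.0206 over 20947 genes), and the labels give no shared origin. With the replicate number as a block, 2 members were called higher and 6 lower, and over all genes 3306 were called, against 2657 without the block.

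With 2 libraries per group, differences of the size seen in most pan-endothelial genes could not be told from the spread between libraries.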
